A study of Mus musculus with 2 samples.

Results

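The cells described here are keratinocytes of the mouse hair follicle picked by 5 transcripts: Edn2, Dio3, Cpxm1, Cps1 and Dhrs9. A cell was a member when at least 2 of the 5 were detected, with at least 1 UMI (a unique molecular identifier, counted once per captured transcript) of Krt5 or Krt14. It could have at most 2 of Fgf5, Fbln5, Pid1 and Kcnk1 and at most 1 of the mitotic genes Ube2c, Cdc20, Ccnb1, Cenpf, Hmmr, Plk1 and Aspm. Of 6884 keratinocytes kept, 1976 were members. These were 1158 of 3879 in replicate 1 (29.9%, exact 95% Clopper-Pearson interval 28.4 to 31.3) and 818 of 3005 in replicate 2 (27.2%, 25.6 to 28.9), a mean of 28.5% ± 1.86 (SD, n = 2 libraries). Intervals cover counting error only.

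The study made 2 single-cell libraries with the 10x Chromium 3′ kit, version 3. The cells came from skin of wild-type C57BL/6;CD1 mice at postnatal day 32, during anagen, when hair follicles grow. They were sorted for the surface protein CD34 and for H2BGFP, a green fluorescent histone made under the keratin 14 promoter, so the sort itself limits which follicle cells are present. There is 1 group, wild type, and no other group to compare it with. The labels do not say that the libraries came from separate animals. Comparisons are therefore between sets of cells within the same libraries, and their p-values measure only the spread between these 2 libraries.

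The hair follicle is built in concentric layers. The outer root sheath is the outermost epithelial layer, continuous above with the bulge, where quiescent stem cells sit, and cells of the sheath feed the growing lower follicle. Endothelin-2, the product of Edn2, is a secreted vasoactive peptide that signals through the receptors Ednra and Ednrb. Dio3 encodes the deiodinase that inactivates thyroid hormone, Cps1 the mitochondrial enzyme of the first step of the urea cycle, and Dhrs9 a short-chain dehydrogenase that acts on retinol. Cpxm1 encodes a secreted member of the metallocarboxypeptidase family.

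The 5 marker genes lie on 4 chromosomes. In GENCODE M21 (GRCm38) Edn2 spans chr4:120161206-120167360 on the plus strand, Dio3 chr12:110279068-110281097 on the plus strand, and Cps1 chr1:67123026-67231259 on the plus strand. Dhrs9 spans chr2:69380445-69404533 on the plus strand and Cpxm1 chr2:130390775-130397574 on the minus strand. Promoters were looked up in the RefSeq table (GRCm38.p6) for the 5 markers and for Tagln and Acta2, and 5 of the 7 genes matched. The 250 bases before the start site are shown for 3 markers, the secreted ligand and the enzymes of hormone and retinoid metabolism: Dio3 and Dhrs9 because they hold motif matches, and Edn2 as an example without one. Capitals mark matches, searched on both strands over the whole 300-base window, to TATAAA or TGANTCA (the AP-1 site); the CArG box, the site of serum response factor, was searched too. The windows are chr4:120160956-120161205 for Edn2, chr12:110278980-110279229 for Dio3 and chr2:69380212-69380461 for Dhrs9, all on the plus strand.
Edn2: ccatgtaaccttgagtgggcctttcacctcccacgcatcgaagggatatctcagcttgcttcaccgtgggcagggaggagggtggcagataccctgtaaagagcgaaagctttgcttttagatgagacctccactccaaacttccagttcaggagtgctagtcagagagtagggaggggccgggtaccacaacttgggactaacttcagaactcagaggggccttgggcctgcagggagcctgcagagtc
Dio3: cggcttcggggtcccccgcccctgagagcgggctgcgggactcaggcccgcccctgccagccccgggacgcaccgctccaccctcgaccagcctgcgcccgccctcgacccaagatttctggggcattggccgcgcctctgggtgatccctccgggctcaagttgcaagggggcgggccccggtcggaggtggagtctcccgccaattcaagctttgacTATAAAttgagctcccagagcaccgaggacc
Dhrs9: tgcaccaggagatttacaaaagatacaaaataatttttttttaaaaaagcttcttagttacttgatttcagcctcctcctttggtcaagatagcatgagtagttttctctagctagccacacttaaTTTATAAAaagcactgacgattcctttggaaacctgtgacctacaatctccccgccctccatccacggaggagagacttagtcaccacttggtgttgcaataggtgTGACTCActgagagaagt
Dio3 has TATAAA starting 31 bases before its start site. Dhrs9 has overlapping matches on opposite strands that start 124 and 122 bases before its start site, and a TGANTCA match starting 18 bases before it. No exact match to any of the 3 motifs was found in the windows of Edn2, Cpxm1 and Acta2, with the CArG box taken as CCWWWWWWGG (W is A or T). Stretches that differ from that pattern by a single base were not counted. The Acta2 window holds such stretches, among them ccctatatgg and ccttgtttgg, so the search does not show that Acta2 lacks a CArG box. Of all 32851 promoters of the table, 13.6% hold TATAAA, 7.81% TGANTCA and 1.63% a CArG box, so these matches are a description of the letters and no more.

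The 5 markers set the members by construction, so their levels are given without a test. Other cell sets serve for comparison. The first holds keratinocytes within the same limits on the other genes but with 0 or 1 marker detected (1615 and 1294 cells), called equally excluded keratinocytes here. The second holds keratinocytes with at least 3 of Fgf5, Fbln5, Pid1 and Kcnk1 and at most 1 mitotic gene (108 and 134 cells), called Fgf5/Fbln5 cells. The last holds cells with at least 2 mitotic genes (998 and 759). Levels are CPM, the UMIs of a gene scaled to the summed UMIs of the cell set (counts-per-million); because the kit reads transcript ends, gene length does not enter, but capture may differ between genes and no order of levels between genes is drawn. Median depth was 9528.5 and 9024.5 UMIs per member against 8707 and 8614 per equally excluded keratinocyte.

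Edn2 was at 217 CPM in the members of replicate 1 and 204 in those of replicate 2, against 31.0 and 31.8 in equally excluded keratinocytes and 78.9 and 53.9 in Fgf5/Fbln5 cells. It was detected in 72.4% and 72.2% of members, and in 54.9% and 55.5% after each cell was thinned to 5000 UMIs. Dio3 was at 90.8 and 65.1 CPM in members and at 4.81 and 2.29 in equally excluded keratinocytes. Here the Fgf5/Fbln5 cells were above the members, at 119 and 78.0 CPM. Dio3 was detected in 42.4% and 32.5% of members (28.7% and 22.2% thinned).

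Cpxm1 was at 124 CPM in the members of replicate 1 and 185 in those of replicate 2, against 49.2 and 45.3 in equally excluded keratinocytes. Its share of members was 68.0% and 82.2% (46.9% and 57.9% thinned), so it was the most often detected marker in replicate 2 and Edn2 in replicate 1. Cps1 was at 50.9 and 58.9 CPM in members, 6.16 and 4.66 in equally excluded keratinocytes, and 103 and 86.7 in Fgf5/Fbln5 cells. Dhrs9 was at 77.7 and 76.4 CPM in members, 15.5 and 8.58 in equally excluded keratinocytes and 57.9 and 70.6 in Fgf5/Fbln5 cells. Members thus had the higher Edn2 and Fgf5/Fbln5 cells the higher Dio3 and Cps1 in both libraries.

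**Figure D1:**
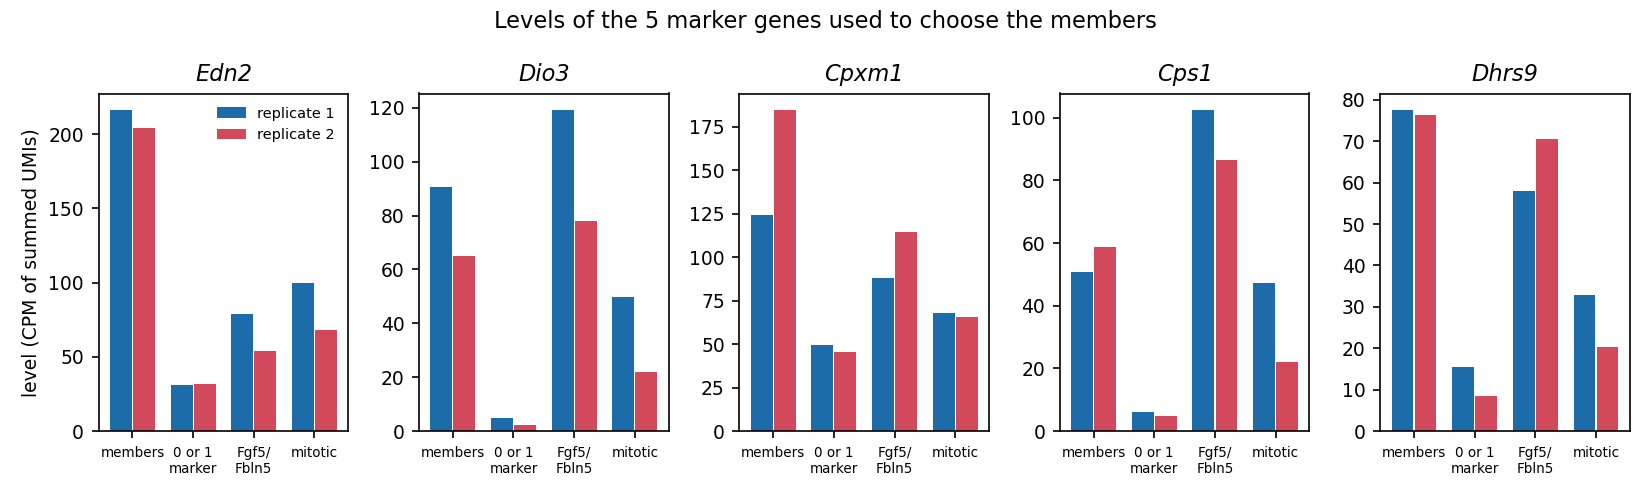
Level in CPM of summed UMIs (vertical axes, from 0) of the 5 marker genes in members, keratinocytes with 0 or 1 marker gene, Fgf5/Fbln5 cells and mitotic cells, with 1 bar per library and no error bar because each bar is 1 sum. Edn2 stands at 217 and 204 CPM in members, and Dio3 and Cps1 are higher in Fgf5/Fbln5 cells than in members.

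Free RNA in the droplets gives UMIs to cells that do not express a gene, so the markers were also read in the kept cells with at least 3 of the 6 fibroblast markers, whatever their Krt5 and Krt14 UMIs. These were 64 cells of replicate 1 and 41 of replicate 2, with median depths of 13393.5 and 15242 UMIs, of which 38 and 21 had a UMI of Krt5 or Krt14; some may be doublets with a keratinocyte. After thinning to 5000 UMIs, Edn2 was detected in 3 of 58 and 0 of 38 of them, Dio3 and Cps1 each in 1 and 1, and Dhrs9 in 2 and 0. A count of 0 of 38 allows a share of up to 7.89%. Unthinned, Edn2 was detected in 5 of the 64 and 1 of the 41, Dio3 and Cps1 each in 3 and 1, and Dhrs9 in 4 and 1. The thinned shares of equally excluded keratinocytes were of the same low size for Dio3 (1.74% and 0.853%) and Cps1 (2.55% and 2.39%). The rule limits those keratinocytes to at most 1 marker, so their shares are held low by choice and cannot show background. Cpxm1 differed: 27 of 58 and 19 of 38 thinned fibroblast-marker cells had it, so it was not limited to epithelium in these libraries.

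Most members passed on few markers. Exactly 2 were detected in 581 and 403 members, 3 in 373 and 248, 4 in 163 and 137, and all 5 in 41 and 30, while 849 and 589 cells just outside the threshold had 1. By this count the members grade into the cells outside the threshold. The count cannot decide whether they are a separate type, since a marker with few UMIs goes undetected in some cells that express it. Its commonest combination was Edn2 with Cpxm1 alone, in 13.0% and 21.1% of members. Among keratinocytes thinned to 5000 UMIs, each marker was detected more often in cells with another marker than in cells without it, in 20 of 20 ordered pairs of genes in each library. The ratio had a median of 1.61 (1.07 to 2.34) in replicate 1 and 1.90 (1.55 to 2.65) in replicate 2. Both orders of a pair always point the same way, so they are not separate observations. The markers were found in earlier work on these same cells, so these ratios describe the members and give them no support.

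So that different UMIs chose the cells and were read, each UMI was assigned at random to either of 2 parts of equal chance. Members were chosen in the first part, and the markers were read in the other. Of the cells so chosen, 58.4% of 807 and 56.0% of 604 again had at least 2 markers in the unused part. Of cells chosen as equally excluded, 15.7% and 13.9% did. In the unused part Dio3 was 6.31-fold and 6.67-fold higher in chosen cells, Edn2 3.67-fold and 2.98-fold, and Cpxm1 1.61-fold and 2.30-fold. These ratios are below those of the full counts, where the same UMIs chose and described the cells. The cells were not thinned for this, so their depth may enter the shares. The markers were found in these same cells, so higher values in the unused part describe the members and give them no support.

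Levels outside the rule moved along the same count. In cells thinned to 5000 UMIs, Tagln (transgelin, an actin-binding protein of smooth muscle) went from 425 and 432 CPM with 0 markers to 1384 and 1851 with 1, 2463 and 2971 with 2, and 3934 and 4445 with 4 or 5. Krt14 went the other way, from 6966 and 5371 CPM to 1091 and 1306, and so did Klf4, a transcription factor of keratinocyte differentiation, from 799 and 751 to 74.3 and 98.1. Sbsn (suprabasin) went from 927 and 812 CPM to 40.0 and 18.9. Across the threshold itself, from 1 to 2 markers, Tagln went from 1384 to 2463 and from 1851 to 2971 CPM. The levels showed no separate step at the threshold. A cell with 1 detected marker may hold others undetected, so this does not decide whether the members are a separate type.

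**Figure D2:**
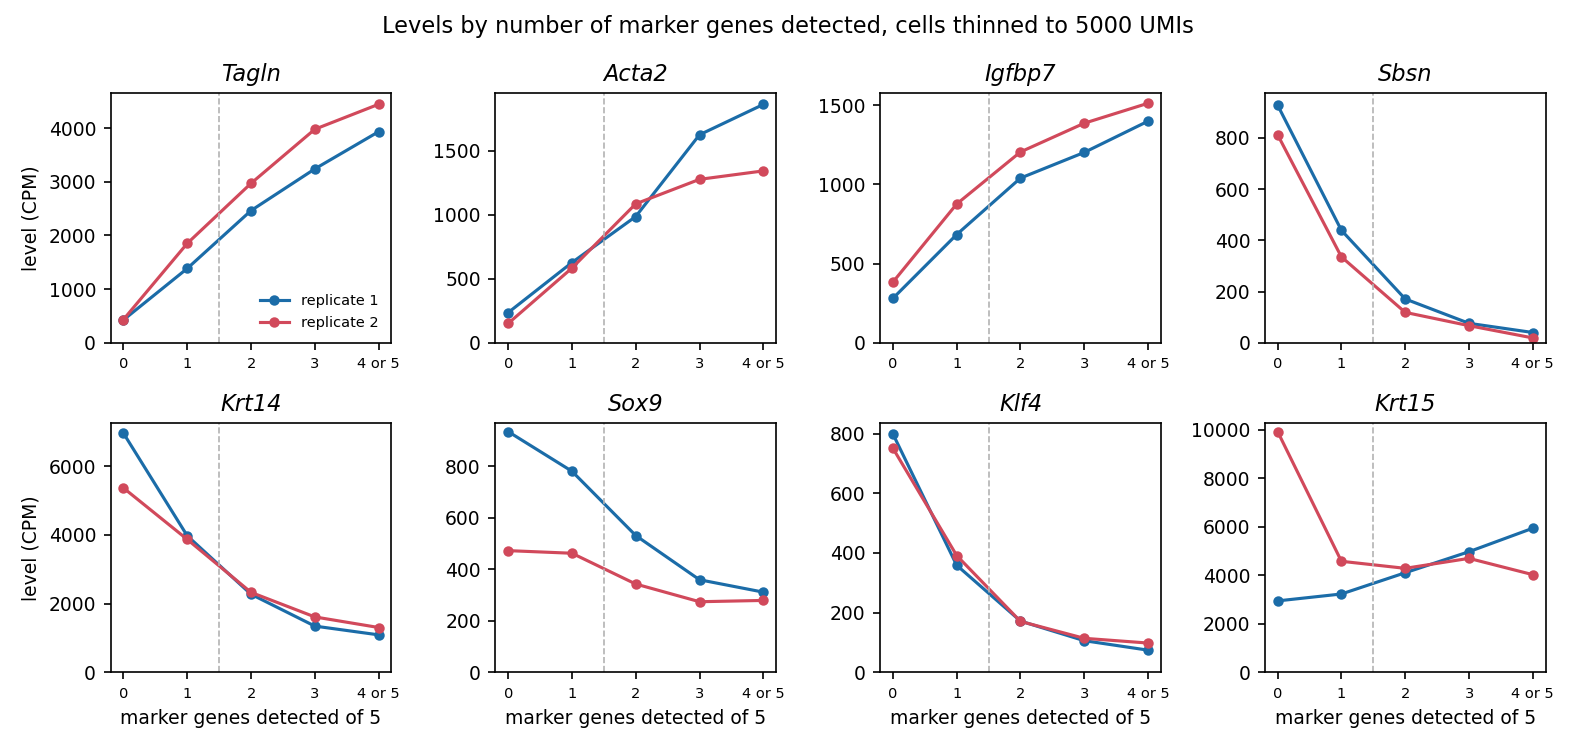
Level in CPM (vertical axes, from 0) of 8 genes by the number of the 5 marker genes detected, in keratinocytes within the limits on the other genes, each cell thinned to 5000 UMIs, with a line per library; the dashed line is the threshold. Tagln reaches 3934 and 4445 CPM at 4 or 5 markers while Krt14 goes down to 1091 and 1306, and Krt15 takes different courses in the libraries.

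Of 5052 genes ranked by Spearman correlation with the number of markers detected, over 3688 and 2821 thinned keratinocytes, Tagln came first (0.52 and 0.54). Igfbp7, an insulin-like growth factor binding protein, followed (0.52 and 0.45), then Gm13305 (0.44 and 0.45), Angptl4, a secreted lipase inhibitor (0.43 and 0.45), and Acta2, smooth muscle alpha-actin (0.43 and 0.45). At the other end stood Lgals3 (galectin-3, −0.48 and −0.47) and Sbsn (−0.44 and −0.38). Cells of a library share its preparation, so these values are descriptions.

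The name outer root sheath was checked against 10 of its markers. In members 9 of the 10 in replicate 1 and 8 in replicate 2 were at 20 CPM or more, and their summed level was 8527 and 6668 CPM. Equally excluded keratinocytes had 11881 and 7243 CPM, and Fgf5/Fbln5 cells 4177 and 3574. Markers of the layer were thus present in members, but their sum was below that of equally excluded keratinocytes in both libraries. Most of the sum was Krt17. Per member its median was 5858 and 4790 CPM, where the median of the summed markers was 7095 and 5802. Against all other keratinocytes the sum in members was below in replicate 1 (10379 CPM) and above in replicate 2 (6476 CPM). The sum does not set the members apart, and they are called here by their genes. Bulge genes split: Krt24 had 0 UMIs in the 1158 members of replicate 1 and 5 in the 818 of replicate 2, against 93 and 987 in equally excluded keratinocytes, while Krt15 was at 4028 and 4233 CPM.

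Cells of other types were few among members. At least 3 markers of a fibroblast, endothelial, immune, melanocyte, smooth muscle or Merkel list were found in 3 and 2 members, against 45 and 20 equally excluded keratinocytes. The 6 fibroblast markers summed to 91.3 and 7.44 CPM in members and to 1409 and 898 in equally excluded keratinocytes; the 6 immune markers to 3.28 and 4.96 against 190.2 and 158. The 6 markers of smooth muscle cells (Des, Myh11, Cnn1, Lmod1, Synpo2 and Actg2) summed to 5.58 and 10.8 CPM in members and reached 20 CPM singly in neither library, with Des at 0 in replicate 1; in equally excluded keratinocytes the sum was 4.17 and 23.7, and Cnn1 alone of the 5 tested was called higher in members. Doublet scores called 59 members (5.09%) and 27 (3.301%), against 2.48% and 2.01% of equally excluded keratinocytes. Removing the called cells left 325 values of named genes on their side of the test's threshold and took 9 below it.

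Over genes that the rule did not use, members had more members among their neighbours than the members' share of all cells. Of the 20 nearest neighbours of a member, 59.9% and 59.6% were members, where members made up 30.1% and 27.5% of the cells. Members' neighbours included equally excluded keratinocytes at 28.0% and 26.3%, where these made up 40.5% and 41.6% of the cells. Mitotic cells made up 26.5% and 26.2% of the cells and 8.53% and 7.58% of members' neighbours. The rule keeps mitotic cells out of the members, and cell cycle genes outside the rule were not removed. Part of the higher member share may therefore be set by the rule, and the size of that part was not tested. Fgf5/Fbln5 cells had 42.6% and 42.5% members among their neighbours, and 46.8% and 41.5% of their own kind. Equally excluded keratinocytes had 22.7% and 19.2% members.

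**Figure D3:**
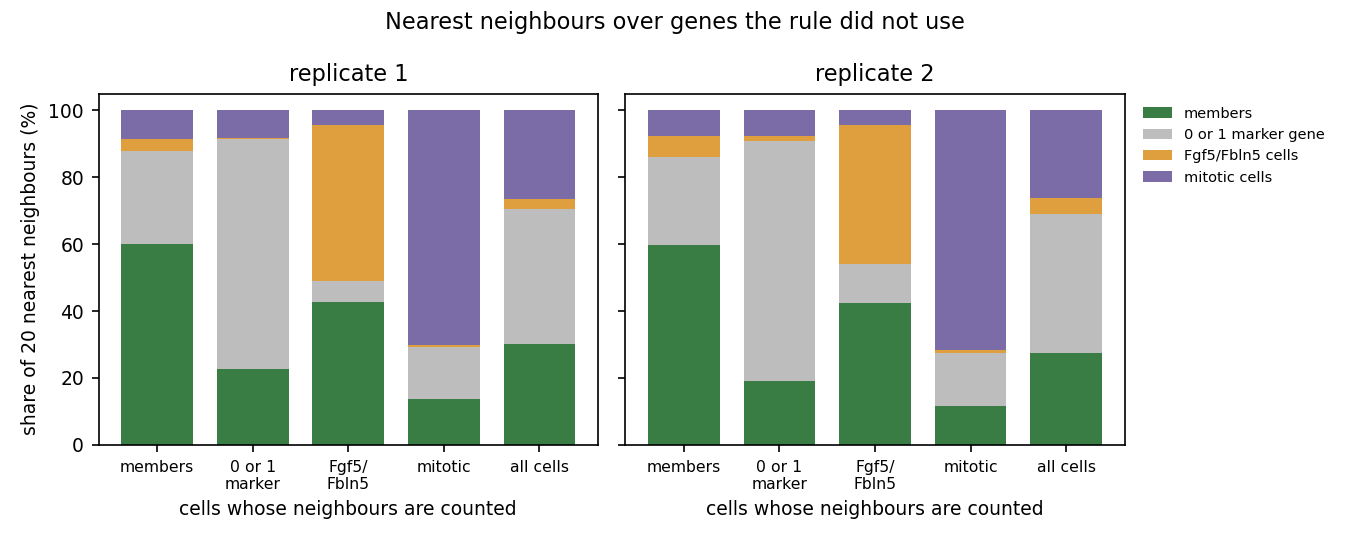
Share in percent of the 20 nearest neighbours (stacked bars, summing to 100) by cell set of the neighbours, for cells of each set and, at the right of each panel, the make-up of all cells in that library. Members take 59.9% and 59.6% of members' neighbours and 42.6% and 42.5% of those of Fgf5/Fbln5 cells.

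Clustering without the rule genes gave no cluster made of members alone. Cluster 3, with Spon1 and Galnt14 among its leading genes, held 37.9% of all members, which were 72.6% of its cells. Cluster 2, led by Rgs2, Col12a1 and Hist1h1c, held 29.6% of members, at 47.9% of its cells. Scrg1 and Gnmt, markers of the Gnmt and Nppc cells of earlier work, were also among its leading genes. Cluster 5, led by Slc7a11, Fhl1 and Flrt2, held 14.5% of members, at 46.7% of its cells beside 38.8% Fgf5/Fbln5 cells. Cluster 1, led by Pthlh, Wfdc18 and Tcim, held 12.1% of members, at 17.5% of its cells, and the remaining 6 clusters held few. Clusters 3 and 2 took 42.2% and 28.7% of the members of replicate 1 and 31.7% and 30.8% of those of replicate 2.

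Members also varied with how many of Fgf5, Fbln5, Pid1 and Kcnk1 they carried. None was detected in 706 and 472 members, 1 in 333 and 231, and 2, the limit, in 119 and 115. Over these steps Tagln was at 1366, 3228 and 5705 CPM in replicate 1 and at 1340, 4629 and 6907 in replicate 2. Acta2 was at 509, 1472 and 2549 CPM in replicate 1 and at 421, 1602 and 2296 in replicate 2. Krt17 of the outer root sheath went down from 7919 to 4806 and from 6238 to 3596 CPM, and Krt15 up from 3018 to 6338 and from 3391 to 6111. Edn2 did not follow, at 209.5, 246 and 178 CPM in replicate 1 and at 217, 222 and 122 in replicate 2.

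Members were compared with other keratinocytes gene by gene by edgeR's quasi-likelihood test on summed UMIs, with Benjamini-Hochberg adjustment over all genes tested and a call at an adjusted p of 0.05 or less. The 18 genes of the rule were left out of the calls. The 5 markers were themselves found in earlier work on these same cells, so the calls describe the members and are no independent support for them. Against all other keratinocytes (2721 and 2187 cells), 1220 of 13246 genes were higher in members (9.21%) and 1665 lower (12.6%). Against equally excluded keratinocytes, which were held to the same limits on the other rule genes, 823 of 13145 were higher (6.26%) and 1314 lower (10.0%). Against Fgf5/Fbln5 cells, 530 of 13145 were higher (4.03%) and 403 lower (3.07%), 7.10% in all; over both directions the shares of the first and second comparison were 21.8% and 16.3%. Equal limits did not make equal levels: Fgf5 was at 61.8 and 78.6 CPM in members and at 14.4 and 11.6 in equally excluded keratinocytes, and its part in that comparison was not tested.

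The fits carry a term for the library, because members and comparison cells come from the same libraries, and the counts rest on it. Without that term 27 genes were higher and 164 lower against all other keratinocytes, 101 and 112 against equally excluded keratinocytes, and 59 and 63 against Fgf5/Fbln5 cells. DESeq2, with the library term, called 423 higher and 648 lower in the first comparison. Values below are for the comparison with equally excluded keratinocytes unless another is named, and the adjusted p-values are from edgeR.

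The contractile list had the largest share of genes called higher in members among the lists compared. Of 17 genes of the smooth muscle type contractile apparatus, 12 rose and 5 did not pass, where 6.26% of all genes rose. Their median log2 fold change was 0.75, where all genes tested had a median of −0.02. At an unadjusted p under 0.05 there were 13 higher and 0 lower, and DESeq2 also called 12 higher and 0 lower. The list had 12 higher after cells with markers of other types were removed, and 4 higher without the library term. Tagln was at 2385 and 3111 CPM in members and at 442 and 445 in equally excluded keratinocytes, and rose 6.07-fold (log2 2.60 ± 0.24 SE, adjusted p = 0.00133). Fgf5/Fbln5 cells had still more, at 5409 and 5587 CPM, but that difference did not pass (adjusted p = 0.0788).

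Acta2 was at 1013 and 1038 CPM in members and at 233 and 169 in equally excluded keratinocytes, and rose 5.12-fold (log2 2.36 ± 0.19 SE, adjusted p = 0.000175). It fell in members against Fgf5/Fbln5 cells, which had 2579 and 1712 CPM (log2 −0.94, adjusted p = 0.0212). Myl9, the regulatory light chain of smooth muscle myosin, was at 393 and 346 CPM against 127 and 96.2 and rose by 1.71 on the log2 scale. Cnn2, a calponin, rose by 1.31, at 115 and 93.8 CPM against 50.6 and 32.8. Per cell the level was uneven: Tagln had a median over members of 1379.6 and 1620.4 CPM and a highest value of 22297 and 17769, and over equally excluded keratinocytes a median of 0.

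The other leading genes that rose are of mixed function. Ggt1, which breaks down glutathione outside the cell, was at 78.2 and 115 CPM in members and at 20.3 and 20.8 in equally excluded keratinocytes (log2 2.17 ± 0.16 SE, adjusted p = 1.38e-05). Spon1, a secreted matrix protein, was at 119 and 132 CPM against 27.1 and 27.1 (log2 2.17 ± 0.21 SE, adjusted p = 0.000418). Krt19, a keratin of simple epithelia and of follicle stem cells, was at 74.2 and 68.1 CPM against 19.6 and 13.0 (log2 2.10 ± 0.13 SE, adjusted p = 4.69e-06). In each library the member sum of each of these genes lay above the comparison sum, which the rule for naming them requires.

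Ckb (creatine kinase) rose by 1.95 on the log2 scale, Fgfbp1 (which binds and releases FGFs) by 1.82, Pdpn (podoplanin) by 1.80, and Slc1a3 (a glutamate transporter) by 1.77. Fgfbp1 was at 371 and 557 CPM in members against 115 and 139.9. Rasl11a, a small GTPase, rose by 1.97 and Fhl1, a LIM-domain protein, by 1.77. Fgf5/Fbln5 cells had more of both than members, with 413 and 526 CPM of Rasl11a against 83.5 and 172, and 426 and 313 CPM of Fhl1 against 77.7 and 77.2, and members fell below them in edgeR (log2 −1.86 and −2.17, adjusted p = 0.00212 and 0.000115). The same held for Ggt1, at 281 and 381 CPM in Fgf5/Fbln5 cells (log2 −1.71, adjusted p = 9.97e-05), and for Ckb, Slc1a3 and Myl9 (log2 −0.94, −0.94 and −0.81, adjusted p = 0.00546, 0.00966 and 0.0137). Spon1, Krt19, Fgfbp1 and Pdpn gave no call against Fgf5/Fbln5 cells.

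Among the genes that fell most, Lgals3 was at 147 and 109.8 CPM in members and at 662 and 792 in equally excluded keratinocytes (log2 −2.54 ± 0.16 SE, adjusted p = 1.21e-05). Klf5, a transcription factor of proliferating epithelium, was at 18.9 and 17.1 CPM against 79.3 and 75.2 (log2 −2.13 ± 0.15 SE, adjusted p = 7.73e-06). S100a4, a calcium-binding protein, was at 4.43 and 2.48 CPM against 49.998 and 83.2 (log2 −4.14 ± 0.38 SE, adjusted p = 0.000881). Sat1, which acetylates polyamines, fell by 2.40 on the log2 scale. In each library the member sum of each of these genes lay below the comparison sum, which the rule for naming them requires.

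The other leading genes that fell have varied functions. Aqp3, a water and glycerol channel, was at 2.71 and 3.97 CPM in members against 41.6 and 115 (log2 −4.46 ± 0.55 SE, adjusted p = 0.0101). Tgm5, a transglutaminase, was at 0 and 5.83 CPM against 7.32 and 102, so nearly all of its signal came from replicate 2 (log2 −4.49 ± 0.58 SE, adjusted p = 0.007). Sostdc1, an antagonist of BMP and WNT signals, was at 50.4 and 92.6 CPM against 193 and 565 (log2 −2.29). Tgfbi fell by 3.24, Capns2 by 2.66, Krt6a by 2.27 and Mt1, a metallothionein, by 2.15 on the log2 scale. Of the 24 leading genes, 16 were called under every one of the 11 other settings tried; Rasl11a, Tgm5, Tgfbi, Capns2, Sostdc1 and Krt6a lost the call only without the library term, and Mt1 also at a mitochondrial limit of 5% and among cells of 5000 to 20000 UMIs.

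Cd74, the invariant chain of antigen presentation, is the exception among them. It had 26 and 20 UMIs in members and 1449 and 965 in equally excluded keratinocytes, and fell by 5.28 on the log2 scale (adjusted p = 3.52e-08). After cells with at least 3 markers of another type were removed, equally excluded keratinocytes had 10 and 40 UMIs, the log2 value was 0.22 and the call was lost. The 45 and 20 cells removed therefore held nearly all of it.

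**Figure D4:**
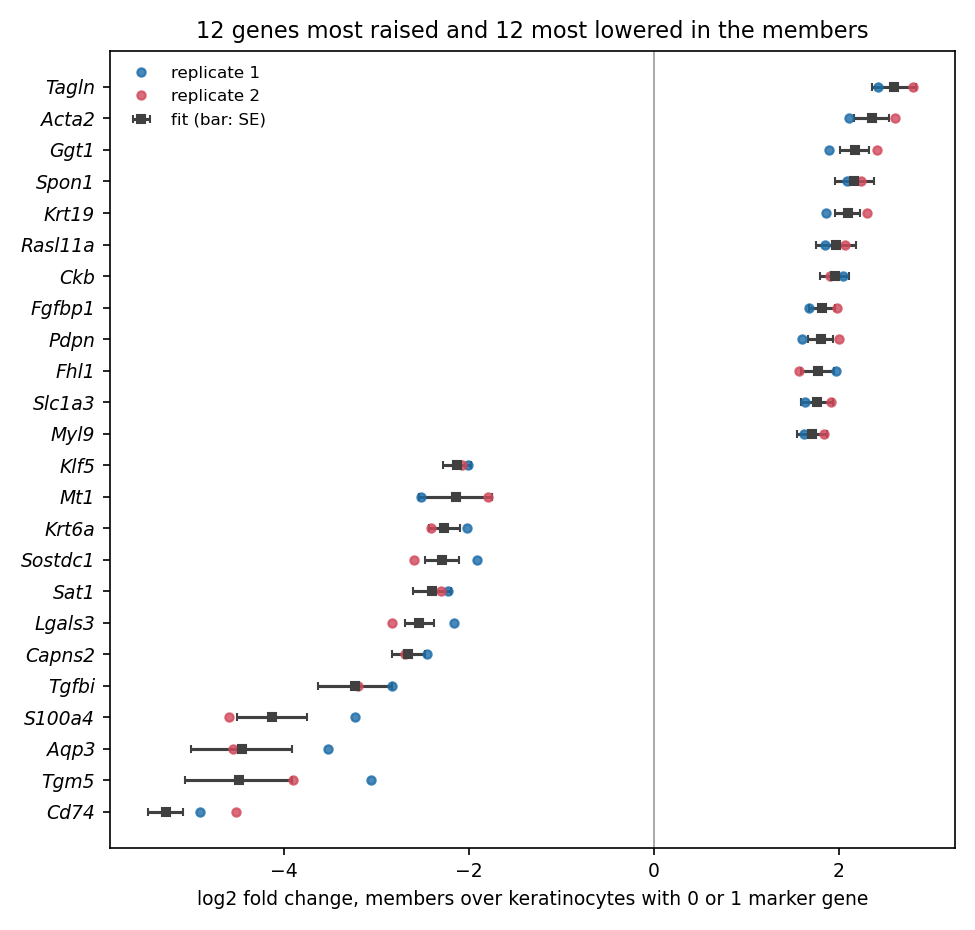
Log2 fold change (horizontal axis) of members over keratinocytes with 0 or 1 marker gene for the 12 genes most raised and the 12 most lowered; squares are the edgeR fit with its SE and circles each library's own value after adding 1 CPM to both levels, which draws low genes toward 0. All 24 genes lie on the same side of 0 in both libraries, which the rule for naming them requires, from 2.60 for Tagln to −5.28 for Cd74.

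Genes of the pathways that the 5 markers belong to were called in both directions, in small numbers that are read against the 6.26% of all genes called higher and the 10.0% called lower. Of the other endothelin genes, the ligand Edn1 rose, at 24.4 and 33.7 CPM against 13.4 and 20.02 (log2 0.77 ± 0.16 SE, adjusted p = 0.00669), a call lost at a mitochondrial limit of 5%. The receptors were almost undetected in members: Ednra had 1 UMI in replicate 1 and 0 in replicate 2, against 22 and 79 in equally excluded keratinocytes. Ednrb had 1 UMI in each library, against 26 and 39, of which 0 and 2 were left after cells of other types were removed. Both receptors passed as lower in edgeR, on these few UMIs, and the Ednra UMIs left after that removal were 11 and 75. Of 5 endothelin genes tested, 1 was higher and 2 lower. Against Fgf5/Fbln5 cells Edn1 was lower in members and the other 4 gave no call.

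Among 14 thyroid hormone genes tested beside Dio3, 1 was higher and 3 lower. Slc7a8, an amino acid transporter that also carries thyroid hormone, rose, at 398 and 319 CPM against 189.8 and 114 (log2 1.25 ± 0.17 SE, adjusted p = 0.00121). The receptors gave no call: Thra was at 38.7 and 55.8 CPM against 39.3 and 74.95 (adjusted p = 0.216) and Thrb at 7.46 and 7.19 against 6.80 and 7.27 (adjusted p = 0.961). Against Fgf5/Fbln5 cells Slc7a8, Thrb and Klf9 were lower in members and Thra was higher.

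Of 14 urea cycle and arginine genes tested beside Cps1, 2 were higher and 4 lower. The arginine transporter Slc7a1 rose, at 161 and 137 CPM against 54.1 and 48.5 (log2 1.498 ± 0.13 SE, adjusted p = 2.12e-05), and was so in cells of the first comparison too (log2 1.03). Ass1, the urea cycle enzyme that joins citrulline and aspartate, fell, at 0.574 and 2.85 CPM against 2.57 and 11.2. Of 18 retinoid genes tested beside Dhrs9, 1 was higher (Dhrs3) and 4 lower, among them Lrat, which stores retinol as ester, at 3.85 and 0.620 CPM against 17.5 and 9.56. Of 12 carboxypeptidase relatives of Cpxm1, 2 were higher and 1 lower. Aebp1, a matrix-associated member, was at 98.5 and 138 CPM against 50.9 and 58.3 and rose by 1.06 on the log2 scale. That call was lost at a mitochondrial limit of 5%. Against Fgf5/Fbln5 cells Aebp1, Cpa6 and Cpq were lower in members and 0 of the 12 higher.

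Basement membrane genes divided by protein. Of 23 tested, 10 rose and 5 fell, where 6.26% of all genes rose and 10.0% fell. Col4a1, a collagen IV chain, was at 356 and 389.5 CPM in members against 142 and 163 (log2 1.26 ± 0.11 SE, adjusted p = 2.13e-05), and Lama5, Lamb1, Lamc1, Col4a2, Itga3, Itgb1, Cd151, Hspg2 and Agrn also rose. Those that fell were Col17a1, Plec, Lamb3, Col7a1 and Npnt, of which the first 4 encode parts of hemidesmosomes or of the filaments and fibrils anchored there. Col7a1 was at 2.62 and 4.34 CPM against 10.8 and 26.4 (log2 −2.37 ± 0.22 SE, adjusted p = 3.18e-05). With cells of other types removed the counts were again 10 and 5, and without the library term 2 and 0. Against Fgf5/Fbln5 cells Col4a1 and Col4a2 were lower in members, and Col17a1, Plec and Itga6 were higher.

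Cell contact genes fell more often than they rose. Of 24 cadherin, desmosome and connexin genes tested, 12 fell, 3 rose and 9 did not pass, where 10.0% of all genes fell and 6.26% rose. Their median log2 fold change was −0.67, and without the library term 1 fell and 0 rose. The desmosomal cadherin Dsg3 was at 22.1 and 24.9 CPM against 68.4 and 77.5 (log2 −1.67 ± 0.12 SE, adjusted p = 1.07e-05). The 3 that rose were Cdh3 (P-cadherin), at 188 and 164 CPM against 91.3 and 79.3, Dsg2, and Gjb6 (connexin 30), at 81.2 and 63.5 CPM against 36.2 and 23.1.

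The stem cell and sheath genes did not move together. Lgr5, a receptor that marks follicle stem cells and lower sheath, rose, at 126 and 156 CPM against 68.7 and 105.4 (log2 0.68 ± 0.12 SE, adjusted p = 0.00221). Sox9, a transcription factor of sheath and bulge, fell, at 589 and 369 CPM against 931 and 481 (log2 −0.55 ± 0.14 SE, adjusted p = 0.0211), a call lost when membership was decided on thinned cells. Krt15 was at 4028 and 4233 CPM in members against 2722 and 8197, above in replicate 1 and below in replicate 2 (adjusted p = 0.787). Cd34, whose product was sorted on, was at 113 and 92.4 CPM against 73.0 and 139.8, again in opposite directions (adjusted p = 0.95). Of 17 bulge genes 2 rose and 8 fell, and of 9 sheath genes 2 rose (Lgr5 and Gjb6) and 3 fell (Krt16, Krt6a and Sox9). Over all genes 6.26% rose and 10.0% fell.

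Markers of other follicle cells were often lower in members than in equally excluded keratinocytes, on lists that earlier work drew from these same cells. Over all genes 10.0% were lower in that comparison and 6.26% higher. All 4 of Wfdc18, Pthlh, Sbsn and Dclk1 fell; Sbsn was at 232 and 149 CPM against 842 and 714 (log2 −2.08 ± 0.25 SE, adjusted p = 0.00338). Pthlh lost its call at a mitochondrial limit of 5% and among cells of 5000 to 20000 UMIs, and Dclk1 at the first. Of 6 genes of the Gnmt and Nppc cells, 4 fell: Nppc, a natriuretic peptide, at 31.4 and 34.7 CPM against 108 and 106, Fst, which binds activins, at 142 and 96.9 against 368 and 369, Gdf10 and Nrg1. Of 9 upper follicle genes, 4 fell and 1 rose. Gnmt itself was called higher in members against all other keratinocytes. Against Fgf5/Fbln5 cells the direction was the opposite for the lists of 4 and 6 genes. There Wfdc18, Sbsn and Dclk1 of the 4 were higher in members and 0 lower. Of the 6, Nppc, Fst, Scrg1 and Nrg1 were higher and 0 lower, where 4.03% of all genes were higher.

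Among signalling lists, WNT genes fell more often than they rose: 12 of 28 tested fell and 3 rose (Wnt6, Lgr5 and Fzd1), with a median log2 fold change of −0.71. After cells of other types were removed 12 again fell and 3 rose, while DESeq2 called 8 lower and the fit without the library term 1. Of 35 BMP, activin and TGF-beta genes, 12 fell and 4 rose. The edgeR counts of all signalling lists are read against the 10.0% of all genes that fell and the 6.26% that rose. Of 22 FGF and EGF genes, 4 rose and 4 fell; those that rose were the feedback and target genes Spry1, Dusp6, Etv4 and Etv5. Etv4 was at 79.1 and 93.5 CPM against 26.3 and 29.6 (log2 1.59 ± 0.11 SE, adjusted p = 4.73e-06) and Etv5 at 31.1 and 25.04 against 9.88 and 6.46. Of the genes named here, Wnt6, Fzd1 and Spry1 were lower in members than in Fgf5/Fbln5 cells, and Etv5 was higher.

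Of 15 insulin-like growth factor and hormone receptor genes, 5 rose and 3 fell, with a median of −0.17, which was 0.16 with cells of other types removed. Counts of this and the following lists are read against the 6.26% of all genes that rose and the 10.0% that fell. Igfbp7 was at 919 and 1107 CPM in members against 359.9 and 429 (log2 1.33 ± 0.10 SE, adjusted p = 7.73e-06), and Ghr, the growth hormone receptor, at 130.2 and 119 against 52.7 and 36.1 (log2 1.49 ± 0.17 SE, adjusted p = 0.000293). Of 22 immediate early genes, which respond to tissue handling as well as to signals, 2 rose (Fos and Btg2) and 8 fell, Klf4 among them at 228 and 216 CPM against 707 and 729. Of 27 genes of secreted matrix, 6 rose and 8 fell with a median of −0.86. With cells of other types removed 10 rose and 6 fell, with a median of 0.38, so the direction of that list rests on those cells. Against Fgf5/Fbln5 cells Igfbp7, Vdr and Prlr were lower in members and Igfbp4 was higher.

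**Figure D5:**
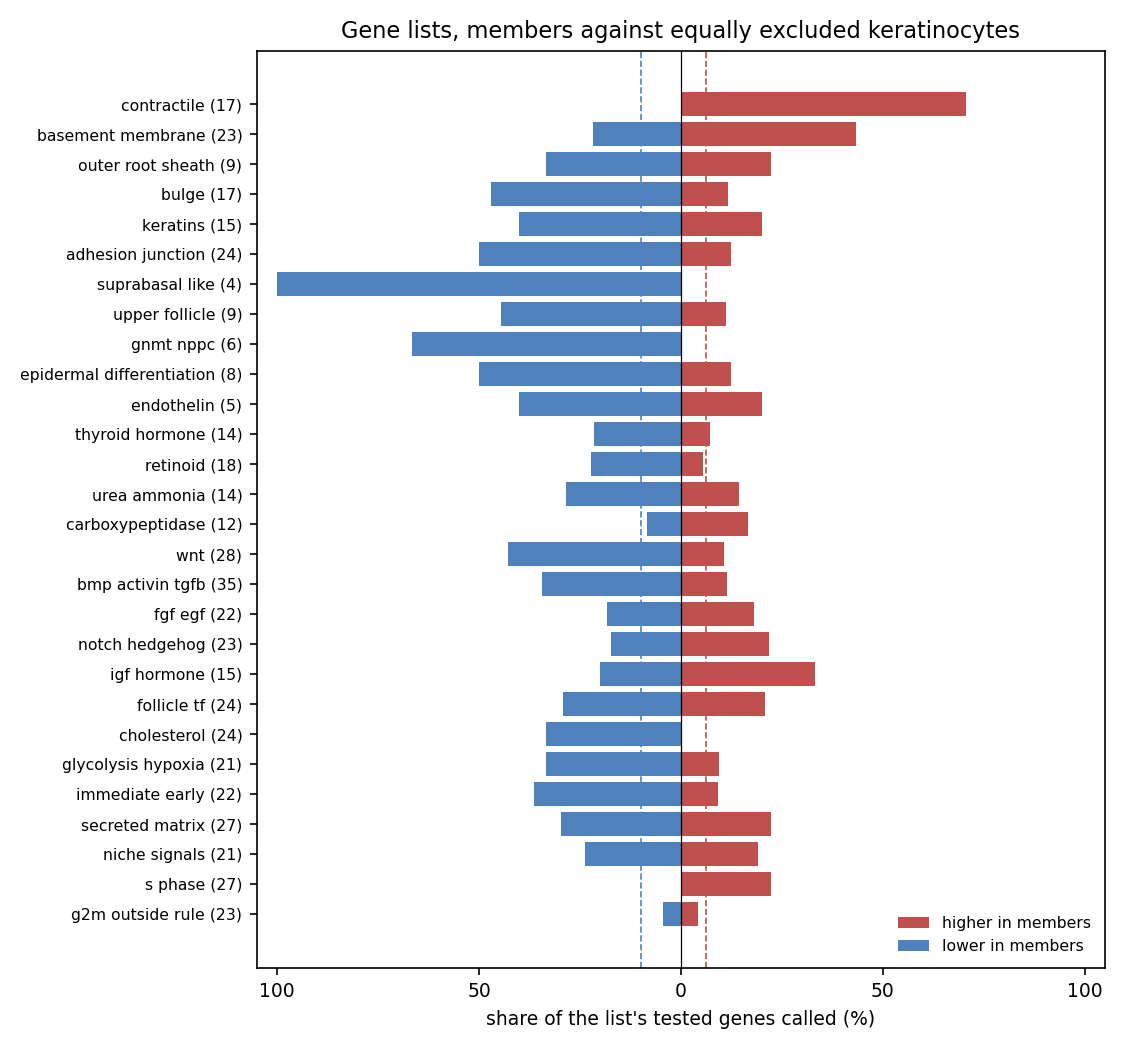
Share in percent of each list's tested genes called higher (to the right) or lower (to the left) in members against equally excluded keratinocytes, with the number tested in brackets; dashed lines are the shares over all genes, 6.26% and 10.0%. The contractile list stands at 12 of 17 higher, and the adhesion and junction list at 12 of 24 lower.

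Members were not in mitosis by the rule, which sets the mitotic genes low against all other keratinocytes. All 23 G2 and mitosis genes outside the rule were lower there, where 12.6% of all genes were. Against equally excluded keratinocytes 1 was higher (Tpx2) and 1 lower (Tubb4b), and Tpx2 lost its call when membership was decided on thinned cells. Of 27 S phase genes, 6 were called higher, 14 at an unadjusted p under 0.05, and 0 in DESeq2, without the library term or with thinned membership. Over all genes 6.26% were called higher in edgeR. Members are deeper than the equally excluded keratinocytes by their medians above, and the part of depth in that list was not separated further.

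Against Fgf5/Fbln5 cells the members had more of several secreted factors. Inhbb, a subunit of activin and inhibin, was at 60.1 and 46.2 CPM in members and at 6.28 and 3.71 in Fgf5/Fbln5 cells (log2 3.51 ± 0.29 SE, adjusted p = 5.15e-05). Sfrp1, a secreted WNT antagonist, was at 366 and 501 CPM against 25.8 and 58.2 (log2 3.47 ± 0.24 SE, adjusted p = 0.000238), and Mfap2, of elastic microfibrils, at 44.04 and 81.1 against 5.59 and 6.81 (log2 3.42). Mgst1, a glutathione transferase, and Fst followed, at log2 3.05 and 2.80. Sfrp1, Mfap2 and Mgst1 gave no call against equally excluded keratinocytes (adjusted p = 0.478, 0.198 and 0.292).

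Lower in members than in Fgf5/Fbln5 cells were Col4a4, a collagen IV chain, at 3.36 and 11.4 CPM against 36.3 and 72.4 (log2 −2.89), and Cux1, a transcription factor, at 38.8 and 83.3 against 343 and 435 (log2 −2.68). Slc7a11, the cystine transporter, was at 37.7 and 48.7 CPM against 257 and 239 (log2 −2.44), and at 10.2 and 11.3 in equally excluded keratinocytes, so members lay between. Htra1, a secreted protease, and Lmcd1 had log2 values of −2.44 and −2.39. Both comparisons use the same member sums, so their values are set side by side and not related to each other. Of 24 cholesterol and lipid synthesis genes, 13 were higher and 1 lower in members than in Fgf5/Fbln5 cells. Over all genes 4.03% were higher and 3.07% lower in that comparison. Against equally excluded keratinocytes 8 of the 24 fell and 0 rose, where 10.0% of all genes fell and 6.26% rose.

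Between the libraries, members were alike for most genes. Of 2857 genes at 50 CPM or more in members of either library, 22 were more than 2-fold higher in replicate 2 and 21 in replicate 1; with 1 library each there is no test. Slpi, a secreted protease inhibitor, was at 135 CPM in replicate 1 and 23.6 in replicate 2, and Mt1 at 62.4 and 329. The equally excluded keratinocytes differed the same way, with Slpi at 199 and 33.5 and Mt1 at 364 and 1143. Hbb-bs, a haemoglobin chain, was at 249.7 CPM in the members of replicate 2 because a single barcode held all of its 2014 UMIs.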

How the data were processed

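Single-cell RNA was measured in 2 libraries, replicate 1 with 6592 barcodes and 52344178 UMIs and replicate 2 with 5080 and 38678103. The deposited values are raw UMI counts per gene and barcode. Per the submitters' processing notes, Cell Ranger 3.1.0, mm10 and Seurat 3.1 were used; the annotation is not given in the sources used here. A barcode was kept when 1000 genes or more were detected and mitochondrial transcripts made up no more than 10% of its UMIs, which left 3918 and 3041 cells, including doublets, as the choice of members requires. The gene minimum removed 1587 and 1543 barcodes, the mitochondrial limit 1087 and 496. The libraries share 11 barcodes, 3 of them kept and 0 of them members.

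Members, gene lists and comparisons were chosen with earlier results of these data known. UMIs were summed per cell set and library and tested with edgeR 4.0.16 (R 4.3.3; two-sided quasi-likelihood test, TMM, filterByExpr, a term for the library). All other keratinocytes were compared over 4 sums with 1 residual degree of freedom, the other sets over 8 sums with 3. Members and comparison cells of a library share its preparation, which is the pairing. On counts simulated for members against all other keratinocytes (13432 genes), 89 of 100 genes changed 2-fold and 32 of 100 changed 1.5-fold were recovered. Of 13232 unchanged genes 2 were called. Against equally excluded keratinocytes (13156 genes) the counts were 80, 40 and 5 of 12956. The simulated counts were independent, with a single fixed dispersion and few changed genes, and the cell sets were not chosen from them. The data differ in these points, so the simulation checks the code and does not give the rate of false calls in the data.

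Genes were named by rule: the 12 with the largest change in each direction among those called alike in the comparisons with all other and with equally excluded keratinocytes, moving that way in each library and at 50 CPM or more in the higher set (312 higher and 182 lower genes qualified); up to 4 per list; the 5 largest in each direction against Fgf5/Fbln5 cells; the 5 most correlated with the marker count; all rule genes; and Cd34, Krt15, Lgr5, Sox9, Tagln, Acta2, Ednra, Ednrb, Thra and Thrb. Some genes that the rule names are not reported here. Genes named as further members of a list's count, and those differing between libraries, were picked after their values were seen. Neighbours and clusters used 2000 variable genes without the rule genes, 30 principal components, 20 neighbours and Leiden resolution 0.5 (scanpy 1.11.5, leidenalg 0.10.2) on cells thinned to 5000 UMIs, which left out 48 and 42 members. Doublets were scored with Scrublet; the highest 0.8% per 1000 barcodes were taken, 255 and 139 cells, as an alternative setting. Other settings were DESeq2 1.42.0, its size factors, no filter, no library term, other thresholds and, added after seeing the data, removal of cells with at least 3 markers of another cell type.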

Additional observations from a re-analysis of the deposited data

Results flagged for a closer look

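Barcodes that the cell filters removed also carried the marker combination. In replicate 1, 15 barcodes with fewer than 1000 genes and 210 above the mitochondrial limit of 10% met every condition on genes; in replicate 2 these were 4 and 41. They were picked out because they show the signal in data that no comparison above uses.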

How the results depend on the processing

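The member share was 28.5% as reported, 27.2% to 29.9% in either library alone, 22.0% with membership decided at 5000 UMIs, 14.3% when 3 markers were required and 31.2% at a mitochondrial limit of 5%. Against all other keratinocytes the 1220 higher and 1665 lower genes became 650 and 1087 with 3 markers, 423 and 648 with DESeq2, and 27 and 164 without the replicate block, the library term that pairs the cell sets. Against equally excluded keratinocytes the 823 and 1314 became 101 and 112 without the block, and at the 5% mitochondrial limit the lower count became 863. Against Fgf5/Fbln5 cells the 530 and 403 became 174 and 164 with thinned membership, 245 and 218 with 3 markers, 243 and 173 at the 5% limit, and 59 and 63 without the block; without a filter 1017 were higher. The cause of these moves was not tested. Under the other settings these counts stayed within 1.5 times. Counts without 1 library could not be had, since no residual degrees of freedom remain.

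Directions reversed for Cd74 (0.41 against all other and 0.22 against equally excluded keratinocytes), and Lyz2 (1.24) and Nid1 (0.23) against all other keratinocytes, with other cell types removed; for Mfap2 (−0.46 against all other keratinocytes) at the 5% limit; for Tpx2 (−0.00101 against equally excluded keratinocytes) with thinned membership; and for Cdh5 against equally excluded keratinocytes without replicate 1 (0.17, and −1.81 without replicate 2). Removal took the Cd74 UMIs of equally excluded keratinocytes from 1449 and 965 to 10 and 40; the cause of the other reversals was not tested. Over named genes in the comparisons with all other and with equally excluded keratinocytes, removing the block left 149 values on their side of the threshold and took 187 below it; DESeq2 left 277 and took 44 below. The 2 libraries and few UMIs of low genes, such as the endothelin receptors, limit the rest.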
